A study of Homo sapiens with 4 samples.

Results

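Smooth muscle contractile genes encode the filaments and filament-binding proteins with which smooth muscle cells and myofibroblasts generate force. The set described here has 10 genes taken by their symbols from a list drawn up with earlier results of these data known (ACTA2, ACTG2, MYH11, MYL9, TPM1, TPM2, LMOD1, CNN1, TAGLN and SORBS2), out of 58870 genes listed in each library. They were measured by RNA sequencing in BJ cells, an established line of human skin fibroblasts. In 2 libraries, titled aged, the cells had been given Dox at 250 nM, an abbreviation that the labels do not spell out. In the other 2, titled young control, they had been given the solvent DMSO. The series design gives the same timing for both groups, an exposure of 24 hours followed by a further 10 days of culture for senescence to set in. The treatment protocol in the labels can also be read with the 10 days before the exposure. Nothing in the labels says whether the libraries of a group came from separate cultures, so the p-values measure the spread between these libraries, which may be technical.

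In contraction, myosin filaments pull on actin filaments, and phosphorylation of the myosin regulatory light chain switches the motor on. Fibroblasts build the same apparatus into stress fibres when they become myofibroblasts, and smooth muscle actin is the usual marker of that state. Many of these genes are known targets of the transcription factor SRF, which binds a DNA element called the CArG box together with the cofactors myocardin and the MRTF proteins.

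The promoter letters of both smooth muscle actins are shown because the CArG box is the element through which SRF is known to act on them. The windows run from 250 bases before to 50 after a transcript start (RefSeq, GRCh38.p14), for ACTA2 on the minus strand at chr10:88952724-88953023 and for ACTG2 on the plus strand at chr2:73892758-73893057. Capitals mark CArG boxes (CC, then 6 bases that are each A or T, then GG) and boxes in which at least 5 of those 6 bases are A or T.
ACTA2: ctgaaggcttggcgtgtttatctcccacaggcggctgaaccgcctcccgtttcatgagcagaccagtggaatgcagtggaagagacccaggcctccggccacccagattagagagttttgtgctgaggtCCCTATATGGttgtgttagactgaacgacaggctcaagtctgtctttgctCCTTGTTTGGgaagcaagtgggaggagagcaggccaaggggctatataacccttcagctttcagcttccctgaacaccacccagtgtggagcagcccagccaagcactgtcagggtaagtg
ACTG2: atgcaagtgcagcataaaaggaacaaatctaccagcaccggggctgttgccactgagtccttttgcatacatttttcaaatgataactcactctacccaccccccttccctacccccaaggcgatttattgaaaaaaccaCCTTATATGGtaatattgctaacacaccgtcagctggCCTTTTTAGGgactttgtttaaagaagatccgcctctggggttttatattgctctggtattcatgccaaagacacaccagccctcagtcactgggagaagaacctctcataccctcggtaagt
Counting back from the start site, with -1 as the base before it, the ACTG2 boxes lie from -110 to -101 and from -73 to -64, and both are full CArG boxes. The ACTA2 boxes lie from -121 to -112 and from -71 to -62, and both are of the relaxed kind. A full box, whose pattern reads the same on both strands, was present in 454 of 35116 promoter windows of this length (1.29%), and a box of either kind in 2854 (8.13%). RefSeq windows were matched for 7 of the 10 genes (16 windows, all but TAGLN, MYL9 and MYH11). Among these 7 genes, ACTG2 alone held a full box and ACTA2 and ACTG2 alone held a box of either kind, and no match says only that these letters are not in these windows.

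All 10 genes passed the filter on low counts, and 8 of them fell in the Dox libraries by edgeR's quasi-likelihood test at an adjusted p under 0.05, while 0 rose. At an unadjusted p under 0.05, 9 were lower and 0 higher, and DESeq2's Wald test at an adjusted p under 0.05 also found 0 higher. Over all 16749 tested genes 13.8% were lower and 16.5% were higher by the same test. The falls ranged from 12.7-fold for MYH11, through 8.20-fold for SORBS2 and 4.98-fold for ACTA2, to 1.47-fold for TPM1. MYL9 and TPM2 did not pass, and all 10 fitted fold changes were below 0. Values per library are given as CPM, which are counts divided by the TMM-scaled library size. On that scale both Dox libraries lay below both DMSO libraries for each of the 10 genes, an order that 34.5% of all tested genes shared, while 34.6% had both Dox libraries above. The median log2 fold change was -1.08 over the 10 genes, beside 0.00 over all tested genes.

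**Figure D1:**
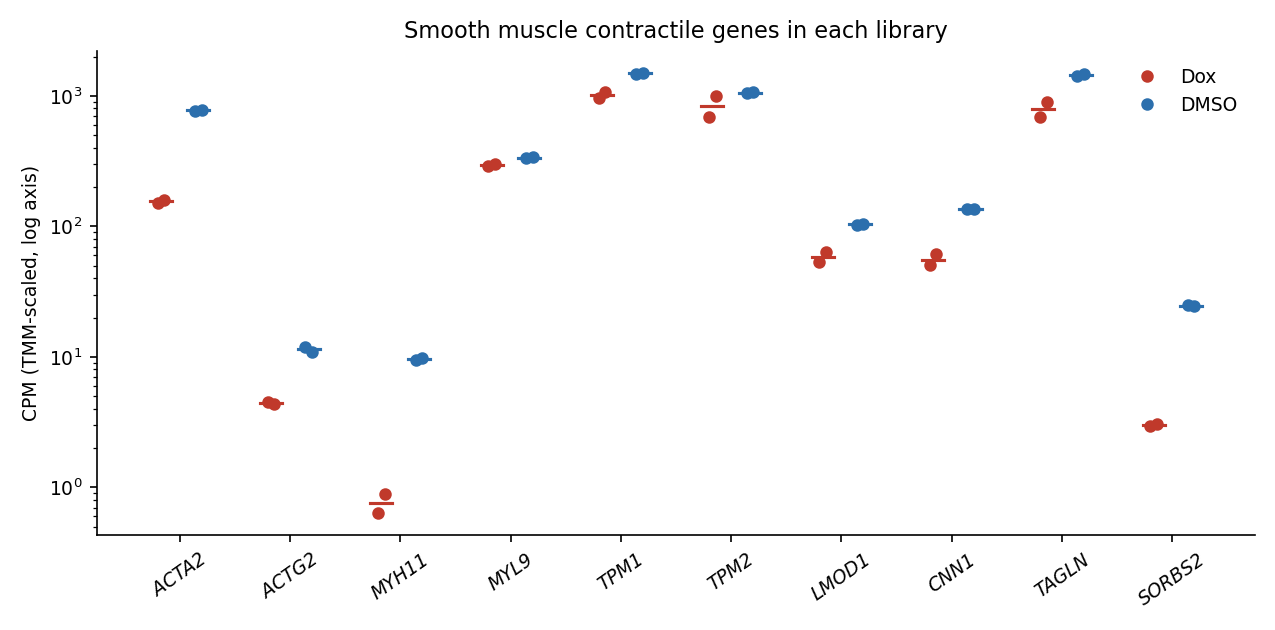
TMM-scaled CPM (log axis) of the 10 smooth muscle contractile genes in each Dox library (red, left of each pair) and each DMSO library (blue), with points for the 2 libraries of a group and a line for their mean. The Dox points lie below the DMSO points for every gene, with the means furthest apart for MYH11 and SORBS2 and closest for MYL9, and the Dox points of TPM2 are the most widely spread in absolute terms.

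The smooth muscle actins both fell. ACTA2, the alpha-smooth muscle actin (ENSG00000107796.13, chromosome 10, 88935074 to 88991339 in GRCh38), was at 152.0 and 159.4 CPM in the Dox libraries, against 769 and 783 CPM in the DMSO libraries. The Dox level was 20.1% of the DMSO level, a difference larger than the spread within either group (log2 fold change -2.32, SE 0.08, edgeR adjusted p = 5.29e-05). ACTG2, the gamma-smooth muscle actin best known from visceral muscle (ENSG00000163017.13, chromosome 2, 73892314 to 73919865), had 192 and 197 counts in Dox and 499 and 513 counts in DMSO. This was 4.49 and 4.34 CPM in Dox, against 12.0 and 10.9 CPM in DMSO (log2 fold change -1.37, SE 0.12, edgeR adjusted p = 0.000621). ACTA2 was thus by far the more abundant smooth muscle actin in both groups, at 33.9 and 57.0 TPM in Dox and 188.5 and 196.8 TPM in DMSO, where ACTG2 was at 0.83 and 1.30 TPM in Dox and 2.53 and 2.39 TPM in DMSO (TPM is scaled by transcript length and to the same total in each library).

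The 2 myosin subunits of the set differed widely in their values. MYH11, the smooth muscle myosin heavy chain (ENSG00000133392.18, chromosome 16, 15703172 to 15857033), had 27 and 40 counts in Dox, against 395 and 461 counts in DMSO. That is 0.631 and 0.882 CPM in Dox, 7.84% of the DMSO level of 9.46 and 9.83 CPM (log2 fold change -3.66, SE 0.19, edgeR adjusted p = 0.000121), the fifth lowest fold change of all tested genes. MYL9, a regulatory light chain of smooth muscle and non-muscle myosin (ENSG00000101335.10, chromosome 20, 36541484 to 36551447), was at 289 and 298 CPM in Dox and at 333 and 338 CPM in DMSO. The groups did not overlap on this scale, but MYL9 did not pass the test (log2 fold change -0.19, SE 0.07, edgeR adjusted p = 0.0900). In TPM its groups did overlap, at 55.0 and 93.3 in Dox and 71.2 and 74.4 in DMSO.

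Among the tropomyosins, which lie along actin filaments and govern access of myosin to them, TPM1 fell and TPM2 did not pass. TPM1 (ENSG00000140416.21, chromosome 15, 63042632 to 63071915) was at 964 and 1064 CPM in Dox and at 1474 and 1502 CPM in DMSO (log2 fold change -0.55, SE 0.08, edgeR adjusted p = 0.00361). TPM2 (ENSG00000198467.14, chromosome 9, 35681992 to 35690121) had 686 (replicate 1) and 999 (replicate 2) CPM in Dox, against 1052 and 1064 CPM in DMSO (log2 fold change -0.33, SE 0.17, edgeR adjusted p = 0.184). Dox replicate 2 was 1.46 times Dox replicate 1 for TPM2, the widest replicate ratio of the 10 genes, while its DMSO libraries differed 1.01-fold. Its log2 fold change came to -0.10 when Dox replicate 1 was left out and to -0.63 when Dox replicate 2 was. LMOD1, a leiomodin that nucleates actin filaments in smooth muscle (ENSG00000163431.13, chromosome 1, 201896452 to 201946588), was at 52.9 and 63.8 CPM in Dox, against 102.9 and 104.6 CPM in DMSO (log2 fold change -0.83, SE 0.10, edgeR adjusted p = 0.00237). LMOD1 was 56.3% of its DMSO level.

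The actin-binding proteins of smooth muscle fell as well. CNN1, calponin 1, which binds actin and restrains the myosin motor (ENSG00000130176.8, chromosome 19, 11538717 to 11550323), was at 50.3 and 61.0 CPM in Dox, against 136.4 and 136.3 CPM in DMSO (log2 fold change -1.29, SE 0.11, edgeR adjusted p = 0.000551). TAGLN, transgelin or SM22-alpha, an actin cross-linker (ENSG00000149591.16, chromosome 11, 117199321 to 117204782), was at 694 and 892 CPM in Dox and at 1420 and 1477 CPM in DMSO (log2 fold change -0.87, SE 0.12, edgeR adjusted p = 0.00387). TAGLN had the highest TPM of the 10 genes in both DMSO libraries, at 468.6 and 498.4. SORBS2, an adaptor protein of stress fibres and cell adhesions (ENSG00000154556.18, chromosome 4, 185585444 to 185956652), was at 2.97 and 3.04 CPM in Dox, against 24.8 and 24.6 CPM in DMSO. Its Dox libraries differed 1.02-fold from each other, and the log2 fold change of -3.04 (SE 0.10, edgeR adjusted p = 5.29e-05) was the fourteenth lowest of all tested genes.

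**Figure D2:**
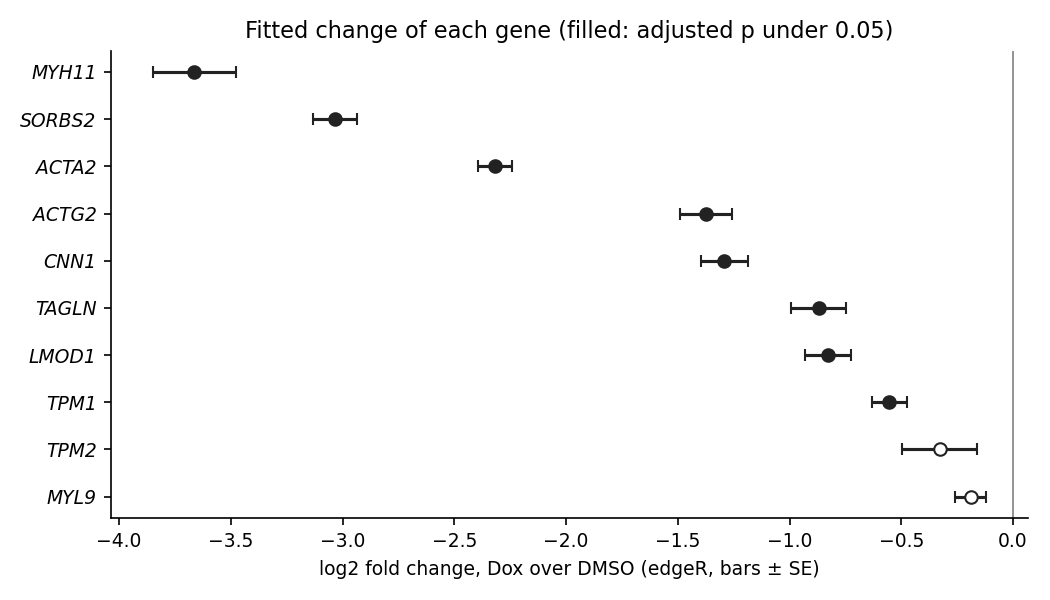
Log2 fold change of each smooth muscle contractile gene, Dox over DMSO, from edgeR, with bars of 1 standard error; filled points passed at an adjusted p under 0.05. The points run from -3.66 for MYH11 to -0.19 for MYL9, and the open points are TPM2 and MYL9.

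Of the 94 genes that fell at least 4-fold (0.561% of those tested), 3 were MYH11, SORBS2 and ACTA2, and 5 of the 10 fell at least 2-fold, as did 3.34% of all tested genes. In limma on log2(TPM + 1), 3 of the 10 fell, namely MYH11, SORBS2 and ACTA2, with CNN1 (adjusted p = 0.152), ACTG2 (0.282), TAGLN (0.678), LMOD1 (0.719) and TPM1 (0.977) not passing. On that scale 198 of all tested genes fell (1.18%) and 596 rose (3.56%), against 2309 and 2764 in counts. The added 1 exceeds the TPM of MYH11 in every library (0.02 and 0.09 in Dox, 0.42 and 0.42 in DMSO). Its log2 fold change on log2(TPM + 1) was -0.43 (SE 0.07), against -3.66 in counts, so this fit does not bear on the size of its fall. With a threshold of 1.5-fold in edgeR, TAGLN (adjusted p = 0.0865), LMOD1 (0.0780) and TPM1 (1.00) did not pass and the other 5 did, beside 2.87% of all tested genes lower and 4.7% higher.

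Library composition and a trend with GC content set the Dox libraries apart from each other. The small RNAs RN7SL1 and RN7SL2 took 33.0% and 42.3% of all TPM in Dox replicates 1 and 2, and 43.9% and 43.8% in the DMSO libraries. In expected counts the order of the Dox libraries was the other way round, with 14.7% in Dox replicate 1 and 12.6% in Dox replicate 2, against 17.6% and 17.4% in DMSO. Expected counts summed to 42880682 and 43429426 in Dox and to 42744729 and 47798920 in DMSO. The ratio of Dox replicate 2 to replicate 1 followed the GC content of the transcripts (Spearman rho = 0.598 across 16717 genes, which are not independent replicates, against 0.0239 for the DMSO pair). GC content was 58.2% for TPM2, 57.8% for TAGLN, 60.7% for MYL9 and 47.2% for SORBS2. Their ratios of Dox replicate 2 to replicate 1 in CPM were 1.46, 1.29, 1.03 and 1.02, so MYL9 did not follow the trend. With each library's GC trend removed, TPM2 was lower too (log2 fold change -0.33, SE 0.10, edgeR adjusted p = 0.0346) and 9 of the 10 genes fell, but calls were more frequent throughout, with 22.7% of all tested genes lower and 23.5% higher, against 13.8% and 16.5% without the correction.

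The contractile isoforms were then set against the relatives that non-muscle or striated muscle cells use, as a share of each family's summed TPM within a library, which does not depend on the scale between libraries. ACTA2 made up 4.47% and 4.11% of actin TPM in Dox, against 16.6% and 16.5% in DMSO. The cytoplasmic actins filled the difference, ACTB with 55.8% and 53.9% in Dox against 46.3% and 46.2% in DMSO, and ACTG1 with 39.6% and 41.8% in Dox against 36.7% and 37.0% in DMSO. In counts neither cytoplasmic actin passed the test, with a log2 fold change of -0.06 (SE 0.10) for ACTB and -0.18 (SE 0.10) for ACTG1. ACTC1, the cardiac actin, was at a low level and fell to 0.982 and 0.948 CPM in Dox against 6.57 and 7.23 CPM in DMSO (log2 fold change -2.84, SE 0.16, edgeR adjusted p = 0.000164). ACTA1, the skeletal actin, had at most 0.0240 CPM in any library.

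CNN1 was 19.4% and 21.5% of calponin TPM in Dox, against 30.3% and 30.5% in DMSO. CNN2 and CNN3, the calponins of non-muscle cells, fell too, by 0.68 (SE 0.08) and by 0.36 (SE 0.07) on the log2 scale. TAGLN made up 90.1% and 91.3% of transgelin TPM in Dox and 94.2% and 94.3% in DMSO, and its relative TAGLN2 did not pass (log2 fold change -0.11, SE 0.08). SORBS3, or vinexin, a relative of SORBS2, rose (log2 fold change 0.46, SE 0.09, edgeR adjusted p = 0.0125).

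TPM1 made up 33.5% and 30.2% of tropomyosin TPM in Dox, against 36.1% and 36.3% in DMSO, and TPM2 46.1% and 54.0% in Dox, against 47.6% and 47.3% in DMSO, so that only TPM1 had groups that did not overlap. TPM4, a cytoskeletal tropomyosin, fell by 0.46 (SE 0.07) and TPM3 rose by 0.28 (SE 0.07) on the log2 scale, with edgeR adjusted p-values of 0.00471 and 0.0272. MYL9 was a larger part of regulatory light chain TPM in Dox, at 21.1% and 22.6% against 18.6% and 18.3% in DMSO. Its close relatives MYL12A (log2 fold change -0.44, SE 0.07, edgeR adjusted p = 0.00636) and MYL12B (-0.41, SE 0.07, edgeR adjusted p = 0.00763) both fell. MYH11 made up 0.0508% and 0.0991% of the summed TPM of MYH9, MYH10, MYH11 and MYH14 in Dox, against 0.532% and 0.530% in DMSO, a minor part in either group beside the non-muscle heavy chain MYH9 (89.3% and 90.9% in Dox, 89.4% and 89.7% in DMSO). MYH10, another non-muscle heavy chain, fell by 0.47 (SE 0.10) on the log2 scale, and MYH9 did not pass (-0.48, SE 0.16, edgeR adjusted p = 0.0629). With 2 libraries against 2 no exact permutation test of such a share can go below a two-sided p of 0.333, so the shares are given without a test.

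**Figure D3:**
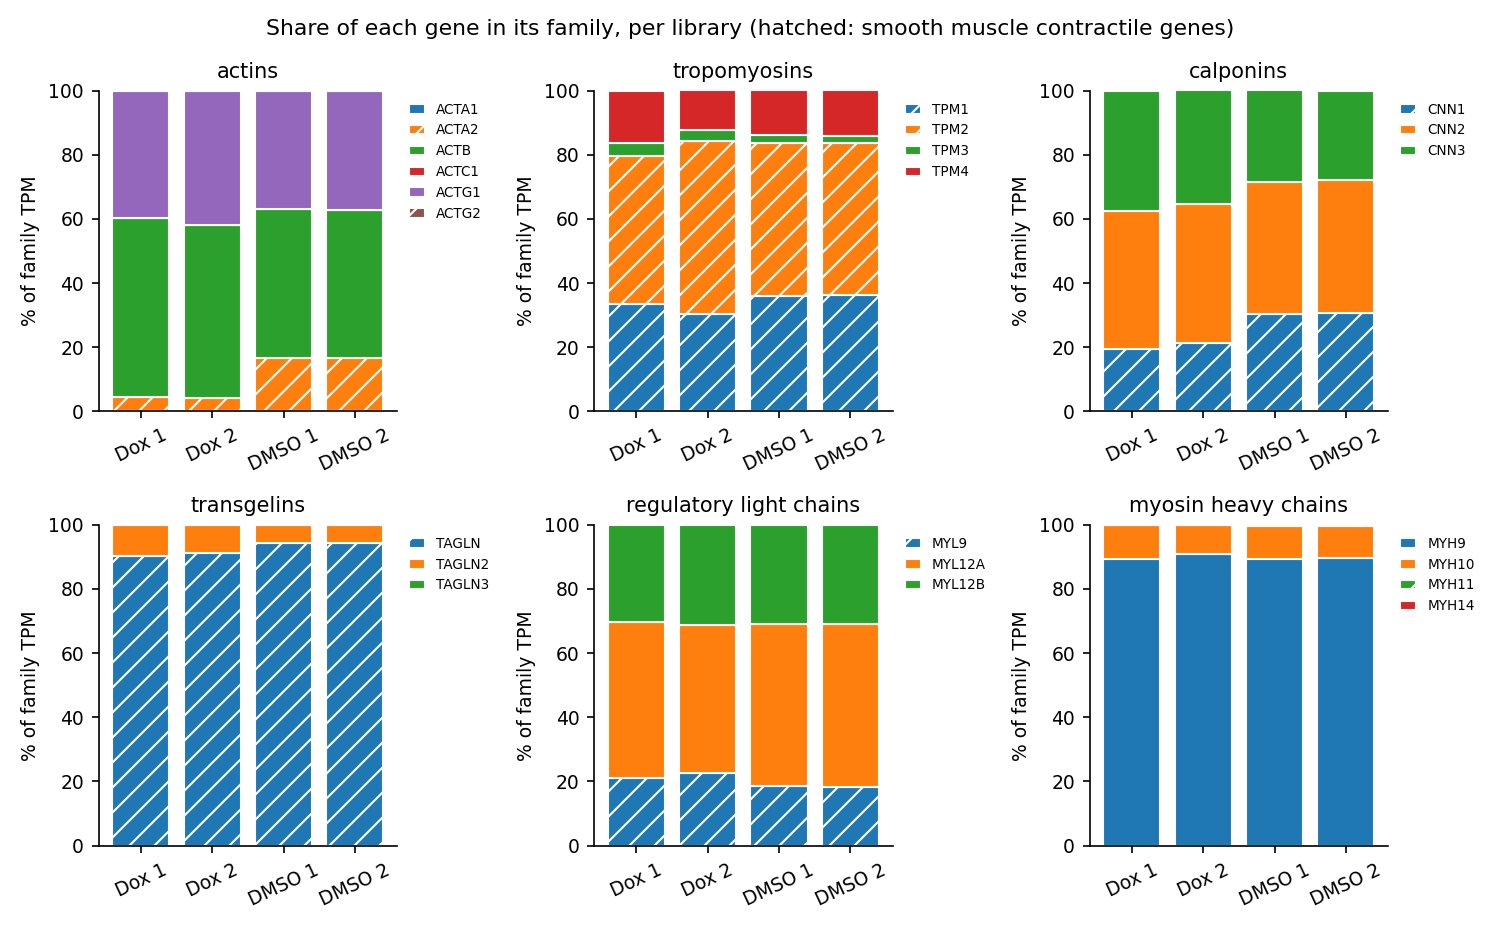
Percent of each family's summed TPM taken by each gene in the 2 Dox and 2 DMSO libraries, with smooth muscle contractile genes hatched. ACTA2 and CNN1 are a smaller part of their families in both Dox libraries, at 4.47% and 4.11% and at 19.4% and 21.5%, while MYL9 is a slightly larger part of its own.

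Of 24 relatives of the 10 genes, 18 were tested. Of these 9 fell and 3 rose, where 13.8% of all tested genes fell and 16.5% rose. In the list 6 missed the threshold, and the median log2 fold change was -0.39. The relatives that rose were TPM3, SORBS3 and TMOD2, a tropomodulin that caps actin filament ends (0.37, SE 0.09). Another relative that fell was MYL6, the essential light chain of non-muscle and smooth muscle myosin (-0.43, SE 0.08). Without DMSO replicate 1, 3 relatives fell and 0 rose, and without DMSO replicate 2, 3 fell and 1 rose. TMOD1 had the highest log2 fold change of the list, 1.11, but an SE of 0.41, and did not pass. LMOD2, LMOD3, TAGLN3 and MYH14 were under 0.1 CPM in every library and were not tested.

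A second list held 24 other genes of the smooth muscle contractile apparatus and its anchorage, of which 21 were tested. Of these 9 fell and 0 rose, where 13.8% of all tested genes fell and 16.5% rose. In the list 12 missed the threshold, and the median log2 fold change was -0.32. At an unadjusted p under 0.05, 11 were lower and 1, SMTN, was higher, and by DESeq2's Wald test 1 gene was higher. ITGA8, the integrin alpha8 subunit of smooth muscle and myofibroblasts, fell most, to 2.36 and 2.20 CPM in Dox against 16.7 and 14.9 CPM in DMSO (log2 fold change -2.79, SE 0.13, edgeR adjusted p = 9.48e-05). PRKG1, the cGMP-dependent kinase that mediates relaxation, fell by 0.66 (SE 0.08, edgeR adjusted p = 0.00204) on the log2 scale. DES, the muscle intermediate filament desmin, had 0.117 and 0.309 CPM in Dox against 1.34 and 1.02 CPM in DMSO, and fell by 2.44 (SE 0.42) on the log2 scale. SMTN, or smoothelin (0.50, SE 0.16), MYLK, the myosin light chain kinase (-0.19, SE 0.10), VCL, or vinculin (-0.17, SE 0.07), and FLNA, or filamin A (-0.38, SE 0.16), did not pass. Leaving out DMSO replicate 1 or DMSO replicate 2 left 5 and 5 genes lower, and leaving out Dox replicate 1 or Dox replicate 2 left 15 and 14 lower, with 2 and 3 higher.

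Of 18 genes that set the phosphorylation of the myosin light chain, 5 fell and 1 rose, 12 missed the threshold, and the median log2 fold change was -0.15, where 13.8% of all tested genes fell and 16.5% rose. The examples given here are both from the genes that fell. PPP1R14A, or CPI-17, an inhibitor of myosin phosphatase typical of smooth muscle, fell to 1.45 and 1.30 CPM in Dox against 3.02 and 2.79 CPM in DMSO (log2 fold change -1.08, SE 0.18, edgeR adjusted p = 0.00629). ILK, the integrin-linked kinase, fell by 0.63 (SE 0.10, edgeR adjusted p = 0.00640) on the log2 scale. Leaving out DMSO replicate 1 or DMSO replicate 2 left 3 and 3 genes lower and 0 and 0 higher. Leaving out Dox replicate 1 or Dox replicate 2 left 12 and 12 lower and 4 and 3 higher.

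Transcripts of SRF and of the factors listed with it moved in both directions. The list named here SRF and its cofactors holds transcription factors of several kinds, ETS factors and a mediator of TGF-beta signals among them. A gene of it that rose need not be an activating cofactor of SRF. Of 15 genes, 6 rose and 1 fell, 8 missed the threshold, and the median log2 fold change was 0.24, where 16.5% of all tested genes rose and 13.8% fell. In limma on log2(TPM + 1), 0 rose and 0 fell, with 1 higher and 1 lower at an unadjusted p under 0.05, and by DESeq2's Wald test 5 rose and 1 fell. SRF itself was at 27.8 and 31.8 CPM in Dox and at 29.9 and 29.1 CPM in DMSO and did not pass (log2 fold change 0.02, SE 0.09). MYOCD, or myocardin, the cofactor of muscle, rose, to 22.5 and 19.8 CPM in Dox against 16.6 and 14.9 CPM in DMSO (log2 fold change 0.43, SE 0.11, edgeR adjusted p = 0.0271). MRTFA was the gene that fell (-0.43, SE 0.12, edgeR adjusted p = 0.0360), and its relative MRTFB rose (0.55, SE 0.11, edgeR adjusted p = 0.0139). ELK3, an ETS factor that partners with SRF, rose by 1.21 (SE 0.12, edgeR adjusted p = 0.00105) and SMAD3, a mediator of TGF-beta signals, by 0.76 (SE 0.07, edgeR adjusted p = 0.000879) on the log2 scale. Without DMSO replicate 1 or DMSO replicate 2, 2 and 2 of the list rose and 0 and 0 fell, and without Dox replicate 1 or Dox replicate 2, 2 and 3 fell.

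**Figure D4:**
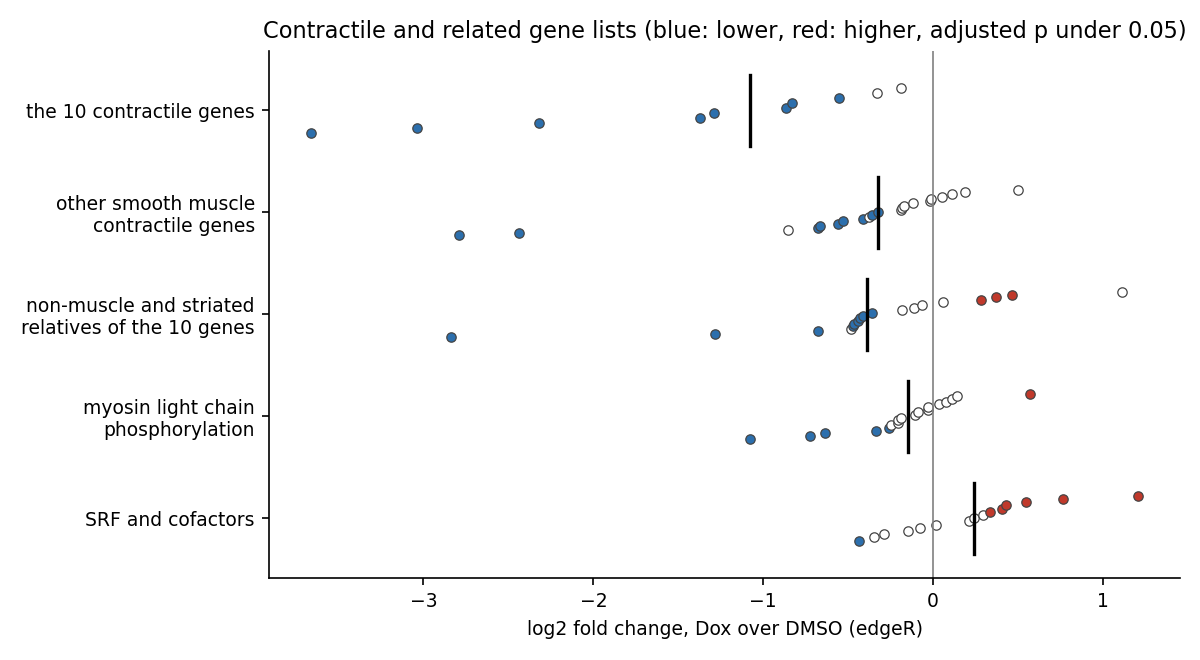
Log2 fold change, Dox over DMSO, of the 10 smooth muscle contractile genes and of the tested genes of 4 related lists, with black bars at the medians; blue points were lower and red points higher at an adjusted p under 0.05, and white points did not pass. The medians run from -1.08 for the contractile genes to 0.24 for SRF and its cofactors.

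RSEM's gene length is the mean length of a gene's transcripts weighted by their abundance, so that it moves with the mix of transcripts assigned to a gene. For ACTA2 it was 1303 bases in both Dox libraries, against 1334 and 1335 bases in DMSO, a difference of 31.5 bases where replicates differed by at most 1.03 bases. For TPM1, to which 38 transcripts are assigned, it was 1829 and 1800 bases in Dox, against 1760 and 1757 bases in DMSO. CNN1 was the third gene without overlap, at 1415 and 1404 bases in Dox and 1433 and 1417 bases in DMSO, but its groups were closer to each other than its replicates were. The other 7 genes overlapped between groups. The share of all genes without overlap in length was not computed, so the number without overlap is not read as a result. MYH11 (6661 and 4050 bases in Dox, 6465 and 6858 bases in DMSO) and SORBS2 (1904 and 2415 bases in Dox, 2145 and 2160 bases in DMSO) had low Dox counts and their Dox libraries lay far apart.

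Several of the 10 genes overlap a gene on the other strand in GENCODE 29, and the sources used here do not say whether counting used strand. MYH11 shares sequence positions with NDE1, which had 580 and 672 counts in Dox and 538 and 648 counts in DMSO, more than MYH11 itself in each library. ACTA2 overlaps STAMBPL1 (542 and 672 counts in Dox, 470 and 490 in DMSO), ACTA2-AS1 (34 and 28 counts in Dox, 22 and 33 in DMSO) and FAS (3040 and 3076 counts in Dox, 2130 and 2384 in DMSO), each below the counts of ACTA2 in the same library. TAGLN overlaps PCSK7, with 1912 and 2531 counts in Dox and 1498 and 1630 in DMSO. None of these 5 neighbours was lower in both Dox libraries than in both DMSO libraries. Words of 50 bases shared with transcripts of other genes made up 0.875% of all such words of ACTA2, 0.200% of those of ACTG2, 0.491% of those of MYH11 and 1.02% of those of TPM1, the highest share of the 10.

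The genes nearest to ACTA2 in their pattern over the 4 libraries, by the Euclidean distance between centred log2 CPM profiles among 8566 genes whose mean reached 10 CPM, were KCNH1 (0.0471), TMEM119 (0.142), NOX4 (0.157), MFAP4 (0.178) and ITGA11 (0.212). KCNH1 encodes a voltage-gated potassium channel, NOX4 an NADPH oxidase, MFAP4 a microfibril-associated protein and ITGA11 a collagen-binding integrin subunit. Because they were chosen for a profile like that of ACTA2, each was bound to be lower in both Dox libraries. ITGA11, for example, was at 186 and 202 CPM in Dox against 848 and 829 CPM in DMSO.

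The cell line's label was checked against 9 fibroblast markers. All 9 were above 1 CPM in every library, with summed levels of 22175 and 27221 CPM in Dox and 29516 and 29106 CPM in DMSO. In a bulk sample fewer contractile cells and less RNA of these genes per cell cannot be told apart. Of the fibroblast markers 5 rose and 2 fell (COL3A1 and PDGFRA), where 16.5% of all tested genes rose and 13.8% fell. Of 7 pericyte markers, a cell type that also uses smooth muscle genes, 3 rose (NOTCH3, KCNJ8 and ABCC9) and 2 fell (RGS5 and PDGFRB), with sums of 380 and 456 CPM in Dox and 601 and 586 CPM in DMSO. Their part in the lower contractile genes was not tested. Of 8 striated muscle markers 6 were under 1 CPM in every library, with MYOD1, MYOG and TNNT3 at 0 counts, and the 3 that could be tested (MYH3, TNNT2 and DES) fell, the sums being 1.94 and 2.80 CPM in Dox and 5.15 and 4.95 CPM in DMSO. All 6 endothelial markers were under 1 CPM in every library (sums of 0.608 and 0.705 CPM in Dox, 0.0958 and 0.171 CPM in DMSO). Among 6 keratinocyte markers KRT10 alone (12.3 and 10.6 CPM in Dox, 9.85 and 9.94 CPM in DMSO), and among 5 melanocyte markers MITF alone (33.4 and 30.0 CPM in Dox, 28.7 and 29.9 CPM in DMSO), reached 1 CPM, and neither passed the test. Of 5 leukocyte markers CD68 (23.9 and 26.1 CPM in Dox, 6.01 and 5.57 CPM in DMSO) and PTPRC (2.10 and 1.83 CPM in Dox, 0.216 and 0.235 CPM in DMSO) rose, while CD3E was at 0 counts in every library.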

How the data were processed

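The authors' deposited expected counts, named so per the file headers, are RSEM's estimated reads per gene. The deposited TPM values and the gene and effective lengths in bases are likewise RSEM's, per the file headers. The deposited tables are 1 per library, made on hg38 with RSEM, STAR, cutadapt and Picard according to the submitters' processing notes. No label or header read here states a tool version or an annotation release. Libraries were grouped by title. Expected counts were rounded, filtered with edgeR's filterByExpr (minimum count 10, minimum total 15), scaled by TMM and tested with edgeR 4.0.16's quasi-likelihood test with group as the only term and Benjamini-Hochberg adjustment over all tested genes (threshold 0.05). Each SE was taken as the absolute log2 fold change over the square root of F. limma 3.58.1, DESeq2 1.42.0, R 4.3.3 and Python 3.11.15 were used. Of the gene identifiers, 99.5% matched GENCODE 29 (GRCh38), which gave 1-based coordinates and transcript GC content. Replicates differed by more than sampling noise (chi-square over its degrees of freedom 60.5 in Dox and 2.40 in DMSO, genes of 20 or more summed counts), so every library was counted once. The fits were tried on simulated counts with the same spread in both groups and no GC trend. The libraries here differ from that setting, so the trial does not show how the fits behave on them. The 10 genes and the 4 lists were chosen with earlier results of these data known. Genes named from a list were the 2 with the lowest adjusted p-values in the commoner direction and those that passed in the other. Relatives in the protein families and overlapping genes were named too. TMOD1, MYL6, DES, SMTN, MYLK, VCL, FLNA and MRTFB were named after their values were seen, and SRF and MYOCD were also named outside this rule. Alternatives were other scalings, filters, tests, pseudocounts, a 1.5-fold threshold, GC-trend offsets, the replicate number as a block, and leaving out each library. Some genes of the lists are counted but not reported here by name.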

Additional observations from a re-analysis of the deposited data

How the results depend on the processing

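Directions of all 10 contractile genes were the same under all 14 alternatives. The cause of the changes below was not tested. Counts given in pairs are genes lower, then genes higher, in Dox. On log2(TPM + 1) the counts were 3 and 0 for the contractile genes, 2 and 0 for their relatives, 2 and 0 for other smooth muscle genes, 0 and 0 for light chain phosphorylation, 0 and 0 for SRF and cofactors, and 198 and 596 for all tested genes. On log2(TPM + 0.1) they were 3 and 0, 1 and 0, 2 and 0, 0 and 0, 0 and 0, and 198 and 637, in the same order. With the 1.5-fold threshold they were 5 and 0, 2 and 0, 2 and 0, 0 and 0, 0 and 1, and 480 and 787. With GC-trend offsets the light chain list had 8 and 2, the SRF list 2 lower, the other smooth muscle genes 1 higher and all tested genes 3790 lower. Whether equal replicate numbers pair the libraries is not stated. Deviations from the group means correlated at 0.0383 between Dox and DMSO libraries of equal number. With 2 libraries per group both pairs give this same value, so it cannot decide the question. With the replicate block 9 contractile genes were lower (TPM2 adjusted p = 0.0424 by edgeR) and 1 other smooth muscle gene was higher. With the replicate block and GC-trend offsets together these were 9 and 1, with 8 light chain genes, 2 SRF genes and 3973 of all tested genes lower. Without the filter on low counts, and by DESeq2's Wald test, 1 other smooth muscle gene was higher. The median of all tested genes was 0.12 without the filter and 0.13 on log2(TPM + 0.1), beside 0.00 in the main result.

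Leaving out each library, where the lone library of a group is assumed to vary like the other group, 8 to 10 contractile genes were lower. The ranges were 3 to 13 lower and 0 to 5 higher for the relatives, 5 to 15 and 0 to 3 for other smooth muscle genes, 3 to 12 and 0 to 4 for the light chain list, 0 to 3 and 2 to 9 for the SRF list, and 1000 to 5017 and 1368 to 4654 for all tested genes. Shares in summed expected counts in place of TPM differed by -9.41 (ACTA2), -5.42 (TAGLN), -7.81 (CNN1) and -0.0614 (LMOD1) percentage points, Dox minus DMSO. Effective lengths differed by -36.7 (ACTA2), -8.40 (TAGLN) and -6.14 (TPM2) bases, where lengths differed by -31.5, -3.185 and -0.925 bases. The lengths of TAGLN and TPM2 overlapped between groups, so their effective lengths are not read as a change in transcripts. Depth limits MYH11 most, with 27 and 40 Dox counts.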
